A study of Mus musculus with 6 samples.

Results

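The cytosolic ribosome is the particle that translates mRNA, and each of its proteins is encoded by its own gene. The genes described here are those of a striatal RNA sequencing table whose GENCODE M21 symbol starts with Rpl, Rps, Rplp or Rpsa in the form used for ribosomal proteins, without the ribosomal S6 kinases and the genes of binding proteins, and whose mean over the 6 libraries was at least 10 normalized read counts. They were 113 of the 46078 genes in the table, and the other 246 genes with such a symbol stayed below that mean, 114 of them at 0 in every library. The 113 genes comprised 50 protein-coding genes of the large subunit, 33 protein-coding genes of the small subunit, 25 genes with a pseudogene symbol ending in -ps and a number, and 5 other genes with a related symbol (Rpl6l, Rpl37rt, Rpl39-ps, Rps3a2 and Rps4l). M21 lists 3 of the 25 pseudogene symbols, Rpl9-ps6, Rpl10-ps3 and Rps12-ps3, as protein coding, and these were kept with the pseudogenes because of their symbol.

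The study sequenced RNA of the striatum from 3 wild-type (WT) and 3 Shank3 transgenic (TG) male C57BL/6J mice aged 12 weeks, with 1 library per mouse. TG mice express EGFP-tagged Shank3, a scaffold protein of excitatory synapses, on top of their own Shank3, and WT mice carry no transgene. The comparison of TG with WT mice asks which transcripts of the striatum differ when Shank3 is overexpressed. Whether the WT mice were littermates of the TG mice is not given in the sources used here.

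The small subunit binds and decodes the mRNA, and the large subunit forms the peptide bonds and releases the growing chain through an exit tunnel. In mammals most mRNAs of ribosomal proteins start with a C followed by a run of pyrimidines, the terminal oligopyrimidine (TOP) motif, through which mTORC1 controls their translation. Ribosomal protein mRNAs are copied back into the genome unusually often, so each of these genes can have many intronless processed pseudogenes that resemble it closely.

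The deposited values are read counts divided by a size factor for each library, here called normalized counts, and between 27689589 and 36647626 reads per library had been counted on genes. Shank3 itself had 29891, 28309 and 26044 normalized counts in TG replicates 1, 2 and 3 and 13807, 12918 and 13865 in WT replicates 1, 2 and 3 (log2 fold change 1.05, adjusted P = 7.04e-05 with limma), which matches the labels. All markers of striatal medium spiny neurons were detected, and their summed level was 109199 to 152915 normalized counts in TG mice and 132082 to 151680 in WT mice. The sum of the 10 choroid plexus markers, which come from a tissue of the adjoining ventricle, was 15643 in TG replicate 1 and 2012 in TG replicate 2, against 651 in TG replicate 3 and 570.5 to 932 in WT mice. Their part in the results below was not tested. Values without TG replicate 1 are given for the counts and medians of both subunits and the pseudogenes and for some of the named genes. In tissue RNA, fewer cells of a type and less RNA per cell cannot be told apart.

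None of the 113 genes passed an adjusted P value of 0.05. In the limma fit over all 17605 genes tested, each of the 113 had an adjusted P value of 0.97 or more, and the share of all genes called was 0.00568% (Shank3 alone). Most of the protein-coding ribosomal genes nevertheless had a slightly lower mean in TG mice. This was so in 69 of the 83 genes, against 50.8% of all genes tested and 45% of those whose mean reached 1000, as it did in 75 of the 83. At an unadjusted P value under 0.05, 18 of the 83 were lower, against 2.33% of all genes and 2.55% of those with a mean of at least 1000, and 0 were higher, against 1.98% of all genes. All 3 TG values lay below all 3 WT values in 16 of the 83 genes, against 5.05% of all genes and 4.65% of those with a mean of at least 1000. The opposite arrangement occurred in 0 of the 83, against 5.06% of all genes.

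Other tools gave the same count of 0 after adjustment. DESeq2 called none of the 83 (0.0398% of all genes called), with 12 lower at an unadjusted P value under 0.05 against 1.3% of all genes. edgeR called none (0.00568% of all genes), with 15 lower at that limit against 2.4% of all genes. A further fit was DESeq2 with shrunken fold changes and an empirical null. Its null was a rescaling of the test statistics by their own spread, not the fdrtool estimate that the study used. This fit called none at an adjusted P value of 0.05 (0.102% of all genes) and 1 at 0.1 (0.17% of all genes). With it, 22 were lower at an unadjusted P value under 0.05 against 3.18% of all genes. The difference was small, with a median log2 fold change of -0.07 over the 83 genes against -0.0018 over all genes, and only Rpl35 and Rpl23a were past a fold of 1.2. Both overlap a gene on the opposite strand, over 68.3% (Rpl35) and 55.4% (Rpl23a) of the transcript.

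The TG mice differed among themselves. Measured as the median over the 83 genes of the log2 ratio to the WT mean, TG replicate 1 stood at -0.11, TG replicate 2 at -0.0028 and TG replicate 3 at -0.099. The same median was 0.0071 in WT replicate 1, 0.032 in WT replicate 2 and -0.047 in WT replicate 3. TG replicate 2 therefore lay within the WT range, and the other TG mice lay below it. TG replicate 1 was below every WT mouse in 56 of the 83 genes and TG replicate 3 in 58, while TG replicate 2 was below every WT mouse in 19. The 83 genes together took 1.01%, 1.09% and 1.02% of all normalized counts in TG replicates 1 to 3 and 1.09%, 1.12% and 1.06% in WT replicates 1 to 3, so the groups overlapped in this share. Without TG replicate 1, the library with the most choroid plexus RNA, 64 of the 83 genes were lower and 11 were lower at an unadjusted P value under 0.05, which is 13.3% of them against 4.55% of all genes in that fit. Without WT replicate 2, the highest mouse in 41 of the 83 genes, 69 were lower but only 3 passed that limit, which is 3.61% of them against 1.81% of all genes.

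**Figure D1:**
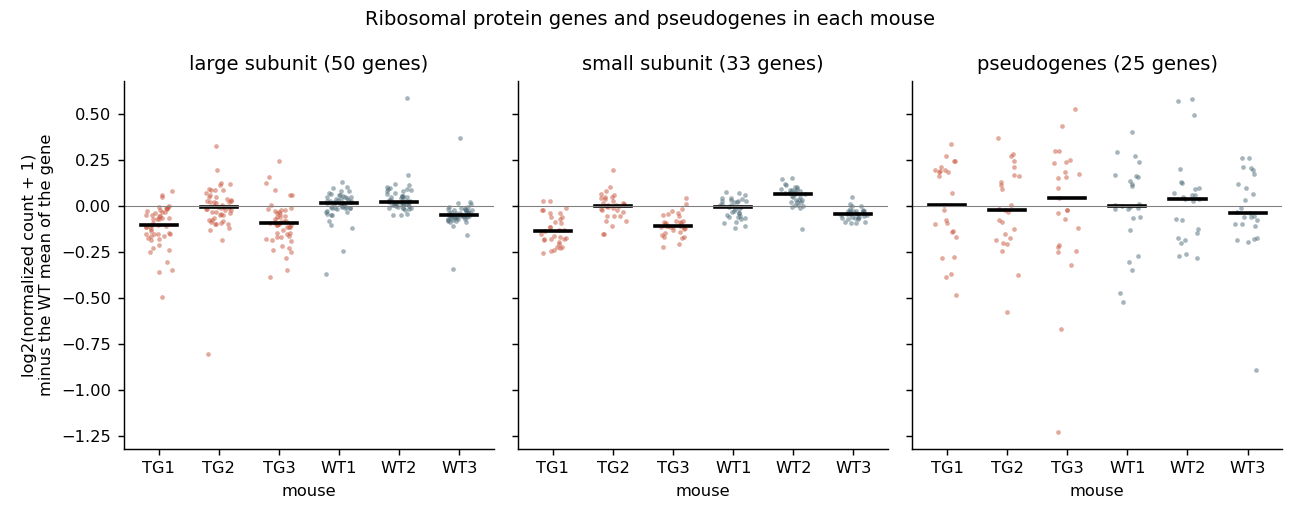
Each point is a gene, plotted for each mouse (x axis, TG1 to TG3 and WT1 to WT3) as its log2(normalized count + 1) minus the mean of that gene in the 3 WT mice (y axis), and black bars are medians over the 50 large subunit genes, 33 small subunit genes and 25 pseudogenes. The bars of TG1 and TG3 lie below those of all WT mice for both subunits, the bar of TG2 lies within the WT range, and the pseudogenes spread widely around 0 in every mouse.

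Among the 50 large subunit genes, 40 had a lower mean in TG mice, the median log2 fold change was -0.07 (quartiles -0.12 and -0.02), and 13 were lower at an unadjusted P value under 0.05, against 2.33% of all genes. Without TG replicate 1, 38 were lower, the median was -0.05 and 9 passed that limit, against 4.55% of all genes. Rpl37, a small zinc-binding protein of the large subunit, had the smallest P value of all members. It had 2990.3, 3058 and 2833 normalized counts in TG replicates 1 to 3 and 3375, 3411 and 3266 in WT replicates 1 to 3. All TG mice were lower than all WT mice, with means of 2960.4 ± 116 (SD) and 3351 ± 75.3, a log2 fold change of -0.18 (SE 0.048) and an unadjusted limma P of 0.0035 (adjusted P = 0.971). An exact permutation test on a single gene cannot give a P value below 0.1 with 3 mice per group, and 0.1 is what it gave for Rpl37.

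The proteins around the end of the exit tunnel, where the new chain leaves the ribosome, include Rpl17, Rpl19, Rpl23a, Rpl26, Rpl31 and Rpl35, and this grouping was made after their values were seen. All 6 had a lower mean in TG mice, with log2 fold changes from -0.31 to -0.07, where 69 of all 83 genes were lower. Rpl39 and Rpl22, which also lie near the exit, were at 0.05 (SE 0.066) and 0.0021 (SE 0.054). Rpl23a, a docking site for factors that meet the new chain, had 662, 786 and 660.2 normalized counts in TG and 839, 830.5 and 854 in WT mice. The groups did not overlap, TG replicate 2 came nearest to the WT range, and the fitted log2 fold change was -0.26 (SE 0.076). Rpl35, which sits beside it, had 555, 758 and 597 normalized counts in TG and 776, 878 and 702 in WT mice. TG replicate 2 was above WT replicate 3 here, so the groups overlapped, although the log2 fold change of -0.31 (SE 0.12) was the lowest of the 83 genes. Rpl31, which contacts chaperones bound at the tunnel exit, had 4697, 4969 and 4687 normalized counts in TG and 5253, 5665 and 5064 in WT mice. The TG mice were all lower, with a log2 fold change of -0.15 (SE 0.053).

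Other large subunit genes stood in the same part of the order. Rpl41, whose product is the shortest protein of the ribosome and lies between the subunits, had 5426, 6138 and 5529 normalized counts in TG and 6257, 6856 and 6309.7 in WT mice. Its groups did not overlap, but TG replicate 2 was closer to the lowest WT mouse than to the other TG mice (log2 fold change -0.19, SE 0.059). Rpl36 had 1951, 2129.9 and 1896 normalized counts in TG and 2245, 2374 and 2164 in WT mice, again without overlap and with TG replicate 2 close to WT replicate 3 (log2 fold change -0.18, SE 0.059). Rpl28, which has no counterpart in bacteria, had 3494, 3606 and 3244 normalized counts in TG and 3783, 3902 and 3656 in WT mice, with a log2 fold change of -0.13 (SE 0.053). Without TG replicate 1 the log2 fold change was -0.22 for both Rpl23a and Rpl35, -0.19 for Rpl37, -0.17 for Rpl36, -0.15 for Rpl41 and -0.14 for Rpl31 and Rpl28.

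**Figure D2:**
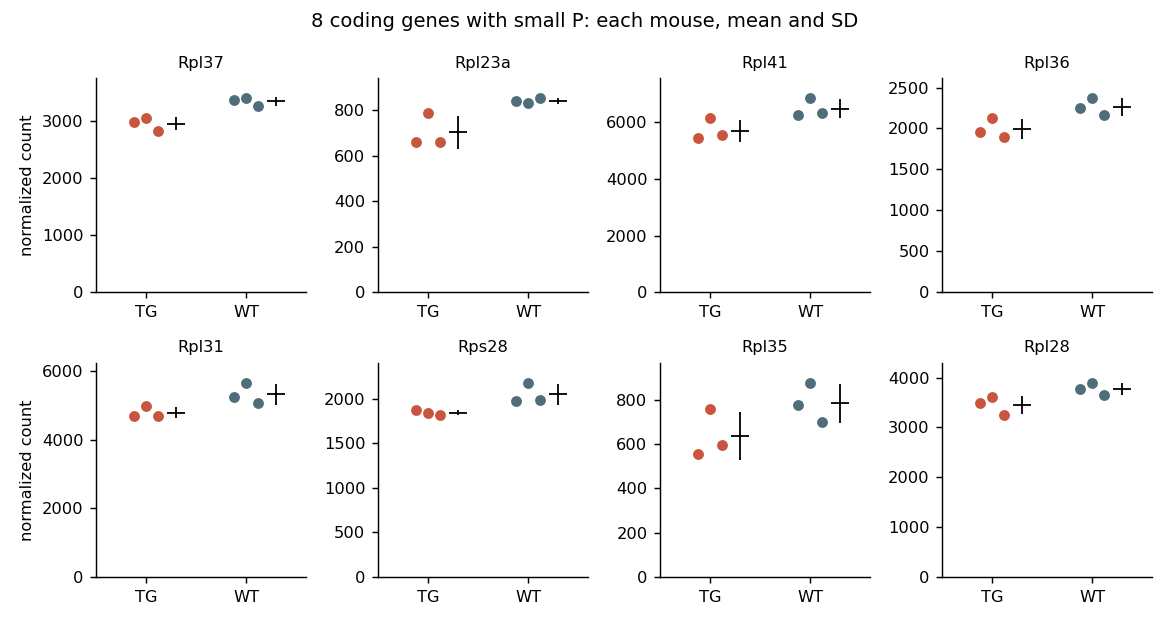
Normalized counts (y axes, each starting at 0) of 8 protein-coding members with small limma P values, with a point for each TG and WT mouse (x axes) and the mean with its SD beside the points. TG points lie below WT points in all 8 panels except for the overlap in Rpl35, and the fitted percent changes run from -8.85 in Rpl28 to -19.3 in Rpl35.

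The stalk of the large subunit, which recruits the GTPases of translation, is made of Rplp0, Rplp1 and Rplp2. Rplp0, its base, had 5044, 4897 and 4657 normalized counts in TG and 5274, 5307 and 5131 in WT mice, without overlap. Rplp2 had 3446, 3620.3 and 3550.2 in TG and 3979, 3819 and 3655 in WT mice, also without overlap, and both genes had a log2 fold change of -0.11. Rplp1, the gene with the highest level per kilobase of transcript of all 83 (22827 normalized counts per kb, median of the 83 genes 5427), had 11182, 11459 and 10845 normalized counts in TG and 12021, 11694 and 11142 in WT mice. These overlapped, with a log2 fold change of -0.06 (SE 0.048). Rpl5 and Rpl11, which bind 5S ribosomal RNA and can also hold the p53 regulator Mdm2, had log2 fold changes of -0.10 and -0.06.

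The large subunit genes with the highest counts, Rpl3 and Rpl4, lay near 0. Rpl3, which lies close to the peptidyl transferase centre, had 12264, 13251 and 12209.7 normalized counts in TG and 13093, 12411 and 12024 in WT mice, and Rpl4, whose extension lines the exit tunnel, had 12695, 13003 and 12454 in TG and 13739.6, 12427 and 12434 in WT mice. In both genes the groups were interleaved, with log2 fold changes of 0.01 (SE 0.053) and -0.02 (SE 0.052). Rpl10, the X-linked gene of a protein that joins the large subunit last, had 5129, 5271 and 4921 in TG and 4925, 5133 and 4824 in WT mice (log2 fold change 0.04, SE 0.047). Of the 4 X-linked members, which are Rpl10, Rpl36a, Rpl39 and Rps4x, 2 were lower and their median was 0.0071.

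Among the 33 small subunit genes, 29 had a lower mean in TG mice, the median log2 fold change was -0.09 (quartiles -0.12 and -0.06), 5 were lower at an unadjusted P value under 0.05 (2.33% of all genes) and 4 had all TG below all WT values (5.05% of all genes). Without TG replicate 1, 26 were lower, the median was -0.05 and 2 were lower at that limit, against 4.55% of all genes. Rps28, which lies where the mRNA leaves the subunit, had 1866, 1839 and 1812 normalized counts in TG and 1971, 2179 and 1988 in WT mice. The TG mice were close together and all below the WT mice, with a log2 fold change of -0.15 (SE 0.053) and an unadjusted limma P of 0.016. Rps26, also on that side, had 2286, 2343 and 2220.1 in TG and 2545, 2518 and 2377 in WT mice, without overlap (log2 fold change -0.12, SE 0.049).

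Rps28, Rps26 and Rps14, all of this mRNA exit side, had a median log2 fold change of -0.12, and the 3 genes of the entry side (Rps2, Rps3 and Rps9) a median of -0.07. These groupings were also made after the values were seen, and the difference between them was not tested. Rps15, whose tail reaches the decoding site, had 6892, 6656 and 6147 normalized counts in TG and 7325, 7282 and 6947 in WT mice, without overlap (log2 fold change -0.13, SE 0.053). Rpsa, also known as the laminin receptor and the most abundant small subunit gene by count, had 10258, 10161 and 9392 in TG and 10852, 10758 and 10031 in WT mice. Its groups overlapped, since TG replicates 1 and 2 exceeded WT replicate 3 (log2 fold change -0.09, SE 0.053). Without TG replicate 1 the log2 fold change was -0.16 for Rps28, -0.17 for Rps15 and -0.11 for Rpsa. Rps6, the protein that S6 kinase phosphorylates downstream of mTORC1, had 4869, 4972 and 4629 normalized counts in TG and 4873, 4758 and 4691 in WT mice. Its mRNA level was interleaved between the groups, with a log2 fold change of 0.01 (SE 0.046), and Rps15a at 0.05 (SE 0.051) was the highest of the small subunit genes.

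Large and small subunit genes stood at a similar distance from WT. The median of the large minus the median of the small subunit genes was 0.033, -0.0073 and 0.014 in TG replicates 1, 2 and 3 and 0.022, -0.042 and -0.0064 in WT replicates 1, 2 and 3 on the log2 scale. These values of the groups overlapped.

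**Figure D3:**
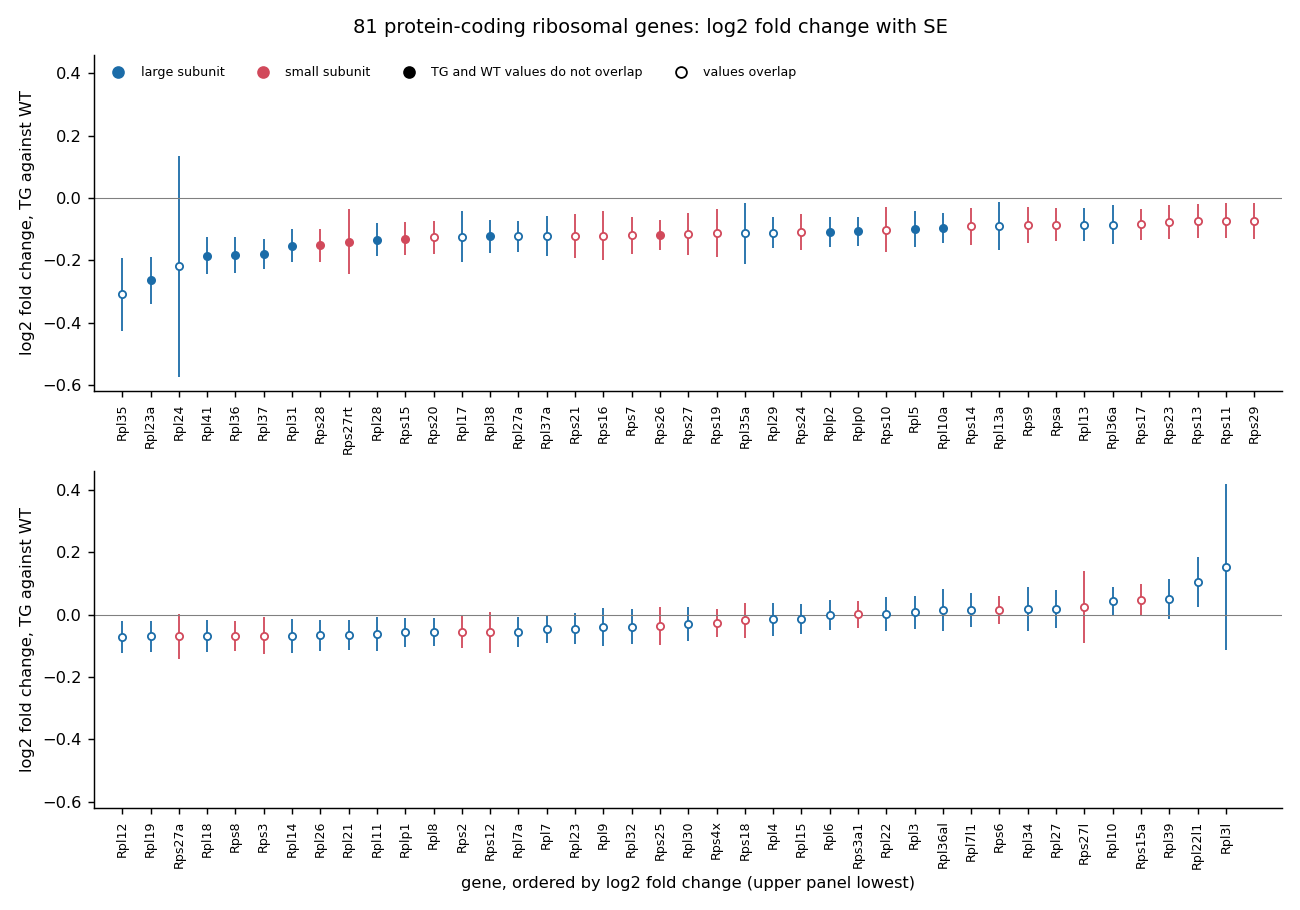
Log2 fold change of TG against WT (y axis) with its SE for 81 of the 83 protein-coding genes (x axis, in order, with the lower values in the upper panel), in blue for the large and red for the small subunit, where filled points are genes whose TG and WT values do not overlap. All filled points lie below 0, and 14 genes lie above 0, of which Rpl3l and Rpl22l1 are the highest.

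Some genes encode a second version of a ribosomal protein. Of the 6 paralogs and retrogenes (Rpl3l, Rpl7l1, Rpl22l1, Rpl36al, Rps27l and Rps27rt), 1 was lower in TG mice and the median log2 fold change was 0.02, while 40 of the other 46 large subunit genes and 28 of the other 31 small subunit genes were lower. The difference between these counts was not tested. Rpl22l1, the paralog of Rpl22, had 559, 643 and 612 normalized counts in TG and 613, 545 and 529 in WT mice, and Rpl22 had 2294, 2450.3 and 2515 in TG and 2533, 2397 and 2319 in WT mice. Both overlapped between the groups, with log2 fold changes of 0.10 (SE 0.081) and 0.0021 (SE 0.054). Rpl3l, the muscle version of Rpl3, was barely counted, with 18, 24.7 and 23.4 in TG and 14.9, 19.6 and 25.5 in WT mice. Rps27l, a target of p53, had 176, 203 and 164 in TG and 187, 163 and 184 in WT mice, against 2302, 2781 and 2555 in TG and 2741, 2853 and 2662 in WT mice for Rps27. The log2 fold changes were 0.02 (SE 0.12) for Rps27l and -0.12 (SE 0.067) for Rps27, and both overlapped. Without TG replicate 1, the lowest mouse in Rps27, the value of Rps27 was -0.05, that of Rps27l 0.04, that of Rpl22l1 0.16 and that of Rpl3l 0.28.

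Rpl36al and Rpl36a, which encode nearly the same protein, had log2 fold changes of 0.01 (SE 0.067) and -0.09 (SE 0.061), and Rpl7l1 and Rpl7 had 0.01 (SE 0.054) and -0.05 (SE 0.045). In none of these pairs did the TG and WT mice separate. The exception among the 6 genes was Rps27rt, an intronless copy of Rps27, with 129, 132 and 137 normalized counts in TG and 144, 147 and 147 in WT mice. The groups did not overlap (log2 fold change -0.14, SE 0.10), but 89.4% of the windows of its transcript that are as long as a read also occur in other transcripts of the annotation, so its reads and those of Rps27 may be mixed.

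The start of the mRNA is where the TOP motif lies, so the first bases of some members are shown. Each line gives 10 bases before the start of transcription and the first 20 transcribed bases, from RefSeq on build GRCm38.p6, in the direction of transcription, with a starting C and the uninterrupted pyrimidines after it in capitals where these are at least 4.
Rpl35 (chr2:39005112-39005141, minus strand): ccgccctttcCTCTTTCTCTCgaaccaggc
Rpl28 (chr7:4792955-4792984, plus strand): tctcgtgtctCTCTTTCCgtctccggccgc
Rpl38 (chr11:114668570-114668599, plus strand): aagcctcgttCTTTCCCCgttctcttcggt
Rps27 (chr3:90213629-90213658, minus strand): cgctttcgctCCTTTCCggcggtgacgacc
Rpl15 (chr14:18270967-18270996, minus strand): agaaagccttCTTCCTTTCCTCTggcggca
Rps6 (chr4:86857348-86857377, minus strand): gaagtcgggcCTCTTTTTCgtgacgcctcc
Rpl37 (chr15:5116603-5116632, plus strand): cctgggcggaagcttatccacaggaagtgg
Rpl31 (chr1:39367841-39367870, plus strand): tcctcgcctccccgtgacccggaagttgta

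The lines were chosen to set genes with a lower TG mean (Rpl35, Rpl28, Rpl38, Rps27) beside genes near 0 (Rpl15, Rps6), all with such a run, and beside Rpl37 and Rpl31, whose annotated start has no run of that length. A C followed by at least 4 pyrimidines at the annotated start was found in 14 of the 63 members with a RefSeq promoter, which is 18.7% of their 75 promoters, and in 2.51% of all promoters in the table. Annotated starts can be some bases away from the true ones, so a missing run says only that these letters are not there. The 14 genes with the run had a median log2 fold change of -0.11, from -0.31 to 0.05, and 12 of them were lower. The 49 genes without it had a median of -0.07 with 38 lower, and the 20 genes with no promoter in the table had a median of -0.07 with 19 lower.

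Other letters recurred in the 300 bases around these starts, searched on both strands. CCGGAAG, a core sequence bound by ETS factors, was in 34.7% of the 75 promoters of members and in 8.86% of all promoters. AAGATGG, the core of the YY1 motif, was in 16.0% of the member promoters against 6.34% of all promoters. TATAAA was in 9.33% of the member promoters against 13.6%. These motifs can overlap, and a match is a description of the sequence only.

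The pseudogenes lay on both sides of 0. Of the 25, 14 had a lower mean in TG mice and 11 a higher one, and the median log2 fold change was -0.01. With limma 0 were lower and 0 higher at an unadjusted P value under 0.05, against 2.33% and 1.98% of all genes. When TG replicate 1 was left out, 12 were lower, the median was 0.036 and 1 (Rps13-ps2) was lower at that limit, against 4.55% of all genes. The TG mice were all below the WT mice in 1 of them (Rpl10-ps3) and all above in 2 (Rps16-ps2 and Rps2-ps10), near the shares of all genes, which were 5.05% and 5.06%. The per-mouse medians were 0.0070, -0.022 and 0.043 in TG replicates 1, 2 and 3 and -0.0015, 0.036 and -0.040 in WT replicates 1, 2 and 3. Their median level was 47.1 normalized counts against 3670.1 for the 83 coding genes, and 13 of them stayed under a mean of 50, so the spread between mice was larger, with a median SD on the log2 scale of 0.19 against 0.069.

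The pseudogenes resemble their parent genes closely. Over the aligned bases the identity to the parent transcript was 95.4% to 100% with a median of 99.8%, and it was at least 98% in 23 of the 25. More than 50% of the read-length windows of 23 pseudogenes occur in a transcript of another gene, and all windows do in several, among them Rpl10a-ps1 and Rps6-ps4. In Rps2-ps11 only 12.9% of the windows do, and these occur in other pseudogenes and not in Rps2, and in Rps19-ps3 7.67% do. The lines show 60 bases of the coding sequence of a parent and of its pseudogene, from GENCODE M21 transcripts with the position of the parent gene on GRCm38, with differing bases in capitals, for a pair that differs in this stretch by more than a single base, for pairs that differ in a single base, and for the pair in which the pseudogene reached the largest share of its parent's level.
Rps2 (chr17:24718116-24721929, plus strand), coding bases 44 to 103: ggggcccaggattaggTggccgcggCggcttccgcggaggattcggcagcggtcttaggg
Rps2-ps11: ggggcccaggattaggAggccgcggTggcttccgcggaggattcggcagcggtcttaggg
Rpsa (chr9:120127689-120132369, plus strand), coding bases 1 to 60: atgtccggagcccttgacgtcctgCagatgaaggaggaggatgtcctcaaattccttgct
Rpsa-ps10: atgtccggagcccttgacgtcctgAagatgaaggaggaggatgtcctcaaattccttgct
Rpl3 (chr15:80077791-80091868, minus strand), coding bases 1 to 60: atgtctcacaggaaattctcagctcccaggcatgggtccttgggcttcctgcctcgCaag
Rpl3-ps1: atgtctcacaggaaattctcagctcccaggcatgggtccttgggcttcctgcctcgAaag
Rpl10a (chr17:28328471-28331033, plus strand), coding bases 4 to 63: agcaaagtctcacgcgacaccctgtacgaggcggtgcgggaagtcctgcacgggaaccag
Rpl10a-ps1: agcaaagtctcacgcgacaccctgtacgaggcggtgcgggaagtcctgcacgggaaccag

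Rpl10a-ps1 (GRCm38, chr1:64993951-64994604, minus strand) had 221, 190.0 and 216 normalized counts in TG and 212, 171 and 203 in WT mice, which is 7.12% of the level of Rpl10a. Its groups overlapped, with a log2 fold change of 0.10 (SE 0.11), and that of Rpl10a was -0.10. Rpl3-ps1, on the X chromosome (chrX:13202571-13203780, plus strand), had the highest level of the 25, with 357, 309 and 387 in TG and 385, 262 and 307 in WT mice, and its TG and WT mice were interleaved (log2 fold change 0.15, SE 0.14). Rpsa-ps10 (chr3:150072658-150073542, minus strand) had 168, 130.4 and 133 in TG and 138, 149 and 148 in WT mice and a log2 fold change of -0.02 (SE 0.13). No pseudogene was above 7.12% of its parent, the lowest was Rps2-ps11 (chr9:108358202-108359069, minus strand) at 0.179%, and the median was 1.27%.

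Rps6-ps4, with the smallest P value of the 25 (0.161, limma, unadjusted), had 233, 202 and 198 normalized counts in TG and 185, 161 and 212 in WT mice. WT replicate 3 lay within the TG range, and the log2 fold change was 0.19 (SE 0.12). Rps16-ps2 had 48.9, 51.7 and 52.6 in TG and 34.3, 46.8 and 48.1 in WT mice, all TG above WT by a margin smaller than the spread of the WT mice (log2 fold change 0.26, SE 0.19). Rps2-ps10 had 42, 42.7 and 41.9 in TG and 36.6, 38.3 and 35.3 in WT mice (log2 fold change 0.19, SE 0.17). Lower in TG were Rps13-ps2, with 26.6, 14.6 and 13.6 in TG and 24.0, 23.4 and 19.6 in WT mice, and Rpl35a-ps2, with 10.3, 15.7 and 4.87 in TG and 12.6, 14.0 and 11.8 in WT mice. In both, the highest TG mouse was above every WT mouse, and the SE of 0.29 and 0.39 was close to the log2 fold changes of -0.33 and -0.41. These values rest on single mice, since Rps13-ps2 was at -0.62 when TG replicate 1 was left out and at -0.16 when TG replicate 3 was, and Rpl35a-ps2 was at -0.76 when TG replicate 2 was left out and at -0.0020 when TG replicate 3 was. The remaining named pseudogenes among the highest, Rpl9-ps6 and Rps12-ps3, had log2 fold changes of 0.11 (SE 0.19) and -0.00077 (SE 0.13). With TG replicate 1 left out the value was 0.30 for Rpl9-ps6, 0.11 for Rps6-ps4 and 0.067 for Rps12-ps3.

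Set beside their parents, 17 of the 25 pseudogenes had a higher log2 fold change than the parent gene and 8 a lower one. The parent was lower in TG mice in 21 of the 25 pairs, where Rps2 and Rps13 are each counted for both of their copies. The largest distance was in Rpl23a, at -0.26, and its copy Rpl23a-ps3, at 0.13 (SE 0.27), which had 32.6, 29.2 and 28.2 normalized counts in TG and 19.5, 41.2 and 25.5 in WT mice. Copies of other genes with small P values lay nearer to their parents. Rpl28-ps1 had 80.7, 71.9 and 92.5 normalized counts in TG and 91.6, 77.6 and 77.6 in WT mice, and its log2 fold change was -0.01 (SE 0.15) beside -0.13 for Rpl28. Rpl31-ps8 had 98.7, 80.9 and 76.0 in TG and 88.1, 94.5 and 82.5 in WT mice, with -0.06 (SE 0.15) beside -0.15 for Rpl31. In these latter pairs the difference between copy and parent was smaller than the SE of the copy.

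**Figure D4:**
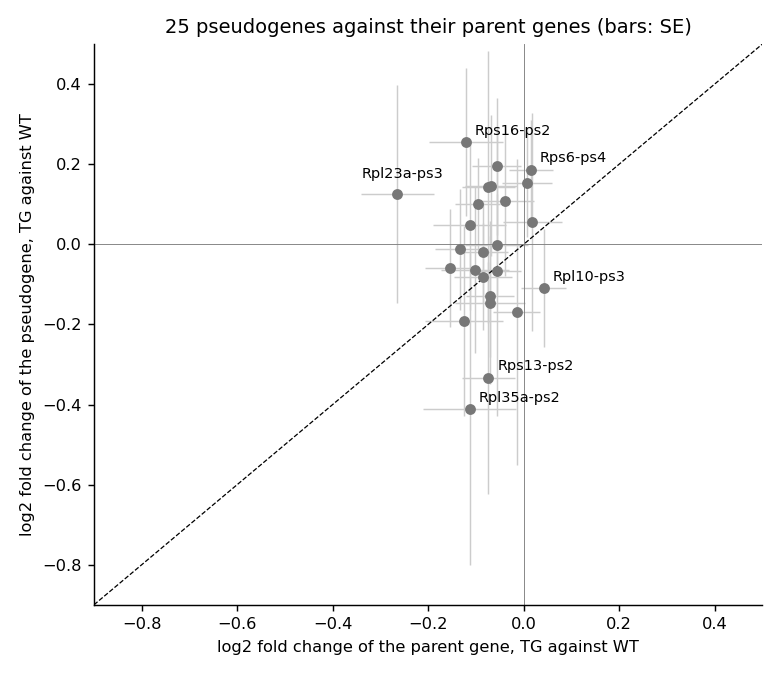
Log2 fold change of each of the 25 pseudogenes (y axis) against that of its parent gene (x axis), with SE bars in grey and a dashed line of equal values. Parent values lie between -0.26 and 0.04 while pseudogene values run from -0.41 to 0.26, and 17 points lie above the line.

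Several pseudogenes lie inside another gene, whose unspliced RNA could be counted there, in particular because the libraries were made with a kit that does not keep the strand. Rpl36a-ps2 lies in Ddah1 on the same strand and Rps13-ps4 in Taf1c on the same strand. Rpl14-ps1 lies in Trpm4, Rpl28-ps1 in Zranb3, Rps12-ps3 in Pdzd8, Rps16-ps2 in Adgrd1, Rps27a-ps2 in Lca5, Rps2-ps10 in Pde6a, Rps2-ps11 in Usp4 and Rps6-ps4 in the lincRNA 2600014E21Rik, all on the opposite strand. The levels of these host genes ran from a mean of 5.82 normalized counts in Pde6a to 4057 in Ddah1. Pde6a and 2600014E21Rik (60.4) were lower than the pseudogenes inside them, Rps2-ps10 (39.5) and Rps6-ps4 (198.6). The other hosts were higher than theirs. The part of such reads in the values was not tested.

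The 5 other members had a median level of 70.0 normalized counts, against 47.1 for the pseudogenes. Their median SD on the log2 scale was 0.17 against 0.19. Rps4l, with a mean of 343, stood above the highest pseudogene, Rpl3-ps1, at 334. Rps4l had 353, 335 and 279 normalized counts in TG and 382, 391 and 318 in WT mice, overlapping, with a log2 fold change of -0.17 (SE 0.11). Rpl37rt, a retrogene of Rpl37, had 36.0, 32.6 and 33.1 in TG and 38.9, 34.6 and 44.2 in WT mice, with a log2 fold change of -0.20 (SE 0.19). Rps3a2 was at -0.16, and Rpl6l and Rpl39-ps were both at 0.22. None of the 5 separated TG from WT mice.

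Shared sequence also touches the protein-coding members. At least some read-length windows occur in another transcript in 76 of the 83 genes, and more than 50% do in 32 genes, with 98.4% in Rps27, 91.6% in Rpl10, 80.0% in Rpl23a and 79.2% in Rpl3 but 0 in Rpl22, Rps3 and Rps21. The 32 genes had a median log2 fold change of -0.07, and the 7 genes without such a window a median of -0.04. Some members also overlap another gene. Rpl24 shares 71.5% of its transcript with Gm28037 on the same strand, and had only 16.3, 8.99 and 18.5 normalized counts in TG and 13.7, 25.3 and 12.8 in WT mice (log2 fold change -0.22, SE 0.36), which is 23.5 per kb against a median of 5427. Rpl35 shares 68.3% of its transcript with Wdr38 and Rpl23a 55.4% with Tlcd1, both on the opposite strand, and at 751.5 and 1378 normalized counts per kb they too were low. Other members with such overlap had a range of levels. Rpl13a (59.3% with Gm45713), Rpl5 (46.6% with Fam69a) and Rps10 (91.6% with RPS10-NUDT3) had means of 6508, 5502 and 3006 normalized counts. Rpl36al (63.1% with Gm49383) and Rpl22l1 (28.8% with Gm33051) had means of 999.7 and 583. The overlaps are those of M21, and RPS10-NUDT3 and Gm49383 were not among the genes of the deposited values. The levels of Rps10 and Rpl36al therefore do not show how such an overlap acts on the counts. Overlaps with small RNA genes and with M21 models of the class TEC were left aside here. One such TEC model covers 34.7% of the transcript of Rpl30. Of the 83 coding genes, 8 then had at least 25% of the transcript shared, with a median log2 fold change of -0.10. In the other 75 under 25% was shared, and their log2 fold changes centred on -0.07 (median), from -0.21 to 0.15. Of these 75 genes, 63 were lower in TG mice, against 50.8% of all genes tested. All TG values lay below all WT values in 14 of the 75, against 5.05% of all genes.

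Across the 83 genes the log2 fold change was only weakly related to other properties, with a Spearman rho of 0.16 for the log of transcript length, -0.17 for GC content and 0.096 for the log of the mean. For the share of the transcript that overlaps another gene, Spearman rho was -0.072 and Pearson r was -0.26. The genes share their libraries, so these coefficients are descriptions. With each library corrected for length and GC content, 67 of the 83 genes were lower and 11 were lower at an unadjusted P value under 0.05, against 1.8% of all genes in that fit. The genes shorter than the median transcript of 681 bases had a median log2 fold change of -0.07 with 33 of 41 lower, and the others had a median of -0.07 with 36 of 42 lower.

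Lists of other genes around the ribosome were counted in the same fit. Fau and Rack1 are ribosomal protein genes with other symbols, and both had a lower mean in TG mice. Fau, a fusion of a ubiquitin-like and a small subunit protein, was at -0.06 (SE 0.061) and Rack1, a signalling scaffold on the small subunit, at -0.05 (SE 0.050). Of 23 other mRNAs with a TOP motif, such as those of elongation factors, 10 were lower and the median was 0.0039. Tpt1, a translationally controlled tumour protein, was at -0.08 (SE 0.044) and Nap1l1, a nucleosome assembly protein, at 0.09 (SE 0.046), each without overlap of the groups.

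Of 67 genes for ribosome biogenesis 29 were lower, with a median of 0.0098. Pno1, an assembly factor of the small subunit, had a log2 fold change of 0.15 (SE 0.077) and Rrn3, an initiation factor of RNA polymerase I, 0.09 (SE 0.049), and in both all TG mice were above all WT mice. Of 12 host genes of small nucleolar RNAs without a ribosomal protein 4 were lower, with Snhg5 at 0.22 (SE 0.12) and Gas5 at -0.06 (SE 0.054). With limma 0 genes of these lists passed the adjusted P value, against 0.00568% of all genes. In the TOP, biogenesis and host gene lists 0 genes were lower and 0 higher at an unadjusted P value under 0.05, against 2.33% and 1.98% of all genes.

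Other tissue markers differed between the same mice. All 7 microglia markers had a lower mean in TG mice, with a summed level of 9420 to 10052 normalized counts in TG and 10128 to 10610.2 in WT mice and with none of them at 0. The summed markers of cortical excitatory neurons were 39710, 27958 and 38836 in TG replicates 1, 2 and 3 and 37409, 35837 and 32517 in WT replicates 1, 2 and 3, and those of medium spiny neurons were 109199, 152915 and 128193 in the same TG mice and 132082, 136765 and 151680 in the same WT mice. TG replicates 1 and 3, in which the ribosomal genes were lower, had more cortical marker RNA and less medium spiny neuron marker RNA than TG replicate 2. Among the WT mice the order was different, since WT replicate 3, with the lowest ribosomal median, had the least cortical and the most medium spiny neuron marker RNA. The part of cell composition in the ribosomal values was not tested.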

How the data were processed

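Striatal RNA of 3 TG and 3 WT mice was sequenced with paired reads. Trimming used Trimmomatic 0.35, alignment to GRCm38 used TopHat2 2.1.0, and genes were counted with HTSeq. What the authors deposited is a signal for each gene and library: its read count over the size factor from DESeq2. The annotation release and strand setting are not given in the sources used here. Reads were recovered from the steps of the values (whole within 0.01 for 100% of values).

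Identifiers were matched to GENCODE M21 (45229 of 46078). The main test was limma 3.58.1 (trend) on log2(value + 1), with fold changes on that scale, over 17605 genes (mean of 10 or more), adjusted by Benjamini-Hochberg at 0.05. edgeR 4.0.16 and DESeq2 1.42.0 on the recovered reads were alternatives, as were DESeq2 with a prior and an empirical null, scaling by library totals or TMM, pseudocounts of 0.5 and 5, leaving the filter out or raising it to 50, a loess correction for length and GC content, the replicate number as a block, each library left out and an adjusted P value of 0.1. The fits were tested on simulated data in R 4.3.3. P values and SE of limma rest on the spread between single mice, moderated for each gene towards a trend over all genes. In Rps2-ps10, with a pooled SD within the groups of 0.042 on the log2 scale, the SE was 0.17. Members and lists were chosen with earlier results of these data known.

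Genes named are the 10 coding members with the smallest P value, the 5 with the highest and the 5 with the lowest mean, each paralog with its parent, the 6 pseudogenes with the smallest P value and the 6 with the highest mean, the pseudogenes of parents named by P value, and 2 genes of each other list. Some genes of this rule are not reported here. Other genes named were chosen after their values were seen. Levels per kb use the shortest principal transcript.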

Additional observations from a re-analysis of the deposited data

How the results depend on the processing

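No large subunit gene, small subunit gene, pseudogene or gene of the other lists passed an adjusted P value of 0.05 under any of the alternatives. At an adjusted P value of 0.1, DESeq2 with a prior and an empirical null called 1 large subunit gene, and no other fit called any member. The medians of the large and small subunit genes stayed below 0 under every alternative, from -0.099 to -0.050 and from -0.13 to -0.049 with a library left out. That of the pseudogenes ran from -0.051 to 0.036 with a library left out and was 0.032 with the length and GC correction, so its sign is not settled by these data. The count of the 83 coding genes lower in TG, an outcome added after seeing the data, was between 64 and 76 with a library left out. The count lower at an unadjusted P value under 0.05, also added, was 11 with the length and GC correction (1.8% of all genes in that fit) and between 3 (without WT replicate 2, 1.81%) and 33 (without TG replicate 2, 2.88%) with a library left out. It was 5 without TG replicate 3 (1.35%), 9 without WT replicate 1 (2.22%) and 11 without TG replicate 1 (4.55%).

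The replicate numbers did not pair the mice. The deviations of TG and WT mice with the same number correlated at 0.047, 0.016 and 0.093 over all genes. Of the TG mice only replicate 3 correlated best with its own number. With the replicate block the count of coding genes lower at an unadjusted P value under 0.05 was 26 against 18 (3.21% against 2.33% of all genes), and 0 passed after adjustment.

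Of the 48 named genes, 33 kept their sign in every setting. With the length and GC correction the sign changed in Rps12-ps3 (0.027), Rpsa-ps10 (0.032), Rpl28-ps1 (0.033) and Fau (0.018), and with library totals in Rps12-ps3 (0.0044). With a library left out, values around 0 were reached by Rpl24 (-0.41 to 0.075), Rpl3l (-0.034 to 0.34), Rps27l (-0.063 to 0.093), Rpl3 (-0.031 to 0.041), Rpl4 (-0.040 to 0.033), Rpl22 (-0.027 to 0.040), Rpl36al (-0.037 to 0.055), Rpl7l1 (-0.010 to 0.041), Rpl9-ps6 (-0.027 to 0.30), Rps12-ps3 (-0.086 to 0.067), Rpsa-ps10 (-0.14 to 0.046), Rpl28-ps1 (-0.10 to 0.074), Rpl31-ps8 (-0.17 to 0.018) and Rpl23a-ps3 (-0.11 to 0.41). The cause of these sign changes was not tested. Counting depth limits Rpl3l, Rpl24 and the 13 pseudogenes with a mean under 50.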
